A study of Rattus norvegicus with 9 samples.

Results

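The 33 genes described here license, start and carry out DNA replication or drive cells from G1 into S phase. They were chosen by name from the gene rows of 9 whole-liver RNA-seq libraries of Sprague-Dawley rats, all wild type and 5 months old. All 33 were found among 40154 gene rows. Livers were sampled from cirrhotic rats injected with HepLPCs (n = 3), from cirrhotic rats injected with PBS (n = 3), and from normal rats (n = 3). HepLPCs are liver progenitor-like cells made from rat hepatocytes, and PBS is the saline vehicle. The normal rats were untreated and had neither cells nor CCl4, a solvent toxic to hepatocytes that brings on cirrhosis, so the effects of injury and of injection cannot be told apart in PBS against normal. Levels are in RPKM, which counts reads relative to gene length and library depth.

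Replication starts when the origin recognition complex, Cdc6 and Cdt1 load the ring of Mcm2 to Mcm7 onto DNA in G1. Cdc45 and the GINS complex then turn that ring into an active helicase, and polymerases, the Pcna clamp and its Rfc loader copy the strands. Cyclin D and cyclin E kinases inactivate the Rb proteins and so free E2F factors, which switch on many of these genes. Most hepatocytes of an adult liver rest outside the cell cycle, and they re-enter it after injury or loss of tissue.

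The promoters of these genes are shown first because E2F binding sites are a known shared feature of the group. RefSeq promoters of build GRCr8 (250 bases before and 50 after the annotated start) were matched to 27 of the 33 genes, all but Mcm4, Cdc6, Rrm2, E2f1, Ccne2 and Ccnd1. The E2F core was searched on both strands as TTCCCGC and in 3 further forms, with GG, CG or GC in place of the middle CC. These forms can overlap, and some sites hold a core on each strand, so overlapping matches were counted as 1 place. A core was present in 20 of the 27 genes (74.1%), against 17.6% of 17 mitosis genes, 17.1% of the 10478 tested genes with a promoter, and 10.6% of all 27457 genes with a promoter. A pair or more of separate places was present in 11 of the 27 (40.7%), against 1.83% of the tested genes and 1.05% of all genes with a promoter. The CCAAT letters, also searched on both strands, were present in 59.3% of the 27 replication genes, 82.4% of the mitosis genes, 39.3% of the tested genes and 39.6% of all genes. Median GC content was 60% in the replication genes and 58% in the mitosis genes, against 60% in the tested genes and 52.3% in all genes.

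All promoters below belong to genes called higher in PBS against normal livers, and Pcna, shown last, is the most abundant of the 33. Mcm3 (chr9:30733697-30733996, minus strand), Mcm6 (chr13:42404303-42404602, minus strand), Fen1 (chr1:216274347-216274646, minus strand) and the third of 3 starts of Uhrf1 (chr9:1222936-1223235, plus strand) held a core. Pcna (chr3:139955771-139956070, minus strand) held none in this window. Capitals mark the E2F core letters on either strand.
Mcm3: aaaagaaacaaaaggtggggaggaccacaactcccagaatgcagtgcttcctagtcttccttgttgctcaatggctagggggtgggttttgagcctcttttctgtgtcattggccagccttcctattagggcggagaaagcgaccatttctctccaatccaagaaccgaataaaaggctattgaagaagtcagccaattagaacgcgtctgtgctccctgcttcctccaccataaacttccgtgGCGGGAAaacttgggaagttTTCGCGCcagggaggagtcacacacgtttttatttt
Mcm6: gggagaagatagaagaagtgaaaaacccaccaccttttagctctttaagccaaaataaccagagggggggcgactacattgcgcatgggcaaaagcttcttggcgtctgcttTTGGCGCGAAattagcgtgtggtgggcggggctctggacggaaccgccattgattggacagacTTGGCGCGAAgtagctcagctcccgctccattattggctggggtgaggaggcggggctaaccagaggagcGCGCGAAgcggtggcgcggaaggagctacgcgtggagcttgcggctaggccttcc
Uhrf1: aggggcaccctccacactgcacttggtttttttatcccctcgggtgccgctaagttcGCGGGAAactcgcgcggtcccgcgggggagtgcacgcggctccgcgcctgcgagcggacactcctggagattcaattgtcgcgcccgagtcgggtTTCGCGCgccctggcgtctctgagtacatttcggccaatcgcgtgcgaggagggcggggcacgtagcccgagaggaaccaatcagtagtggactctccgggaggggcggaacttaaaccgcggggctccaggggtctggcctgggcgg
Fen1: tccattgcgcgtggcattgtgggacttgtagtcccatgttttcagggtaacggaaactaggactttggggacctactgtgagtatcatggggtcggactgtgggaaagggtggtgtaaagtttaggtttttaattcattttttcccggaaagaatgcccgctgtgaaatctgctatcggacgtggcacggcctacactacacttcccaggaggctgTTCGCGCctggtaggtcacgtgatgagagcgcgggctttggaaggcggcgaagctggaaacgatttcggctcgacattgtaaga
Pcna: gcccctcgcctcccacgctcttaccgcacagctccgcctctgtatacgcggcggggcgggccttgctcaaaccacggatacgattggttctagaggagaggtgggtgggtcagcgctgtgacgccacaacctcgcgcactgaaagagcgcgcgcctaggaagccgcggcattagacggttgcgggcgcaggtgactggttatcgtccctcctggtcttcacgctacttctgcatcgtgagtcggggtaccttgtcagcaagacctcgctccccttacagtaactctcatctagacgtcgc

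**Figure D1:**
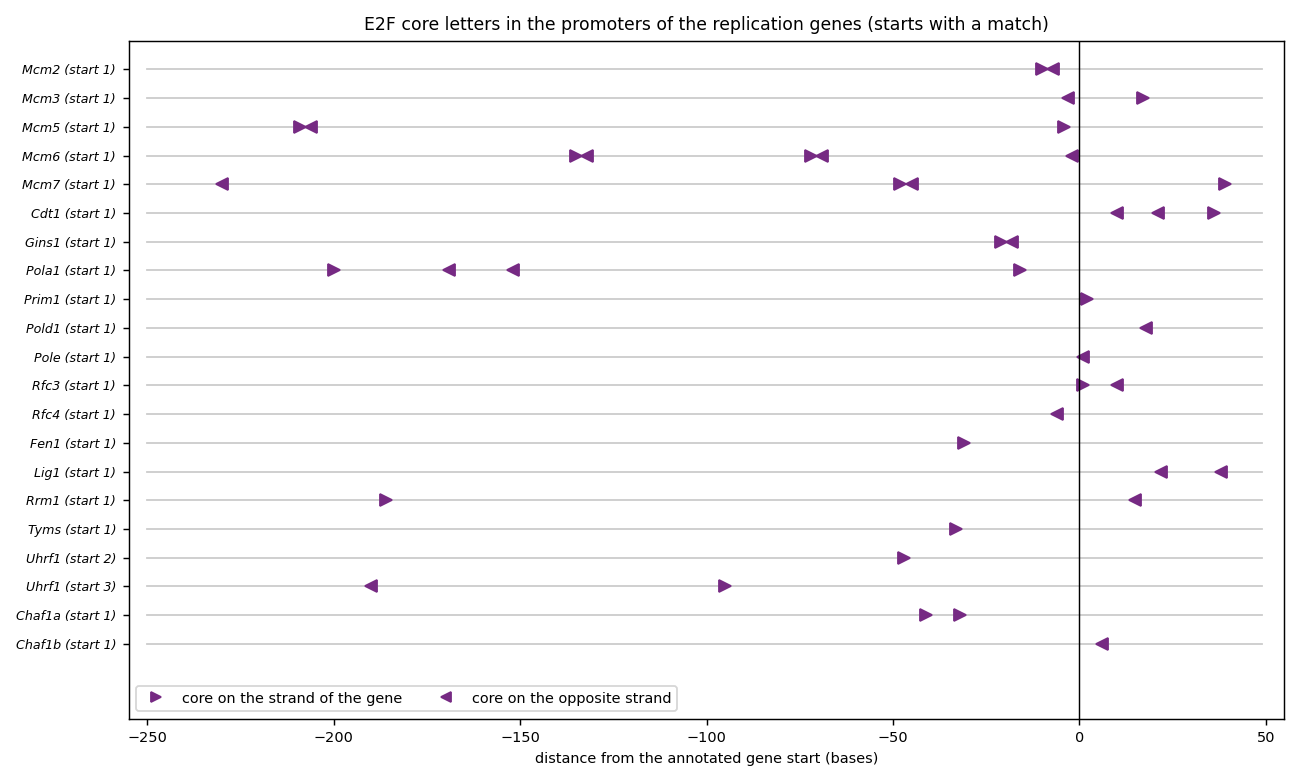
Positions of E2F core letters (x axis, bases from the annotated gene start, 0 being the start) in each promoter with a match (rows), with arrowheads for the strand. Of 43 matches 30 lie within 60 bases of the start (69.8%), against 41.5% of the 3553 matches over all genes.

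The cores clustered near the start in the replication genes: 30 of 43 matches fell within 60 bases of it, among them both in Mcm3. Mcm6 held 3 places and Pola1, the catalytic subunit of the priming polymerase, held 4. Cdc45, Gins2, Pcna, Rfc5, Tk1, Dut and Ccne1 had a promoter with no such letters. Of the 20 genes with a core 14 were called higher in PBS against normal livers, and of the 7 without a core 4 were. The median log2 fold change in PBS against normal was 0.57 with a core and 0.62 without, which was not tested.

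Libraries held 17.4 to 21.8 M reads. The 33 genes together drew 3810 to 4664 reads in HepLPC libraries, 5104 to 6806 in PBS libraries and 2887 to 3839 in normal libraries, and 19 of them were under 1 RPKM in every normal library, so many levels rest on few reads. HepLPC replicate 2 and PBS replicate 1 stood apart from their groups by gene length (Spearman's rho between length and deviation from the other replicates was -0.44 and -0.47 over tested genes, and -0.60 and -0.66 over the 33), with short genes high relative to long ones in both. The other HepLPC and PBS libraries had rho of 0.33 to 0.34 over tested genes and 0.21 to 0.65 over the 33. Each deviation is relative to the other replicates, so rho alone does not show which library departs. Differences were tested with limma on log2(RPKM + 1) over 15983 genes, and fold changes are on that log2 scale, which understates changes of genes under 1 RPKM. Adjusted p-values are Benjamini-Hochberg values over those genes, and a gene was called under 0.05. Nothing in the labels says that each library is a separate animal, so the p-values measure the spread between these libraries. In whole liver, fewer cells of a type and less RNA per cell cannot be told apart.

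In cirrhotic livers with PBS most of the replication genes rose relative to normal livers. Of the 33, 21 were called higher and 0 lower, against 11.2% of all tested genes called higher and 0.964% called lower. All 33 fold changes were above 0 except for Pole after quantile normalization (-0.12), and their median was 0.60, against 0.16 over all tested genes. Of all 15983 tested genes, 12078 had fold changes above 0. In 28 of the 33 all PBS libraries lay above all normal libraries, against 32.3% of tested genes. Summed over the 33 genes, expression was 137, 141 and 146 RPKM in PBS livers, against 74.7, 65.3 and 77.2 RPKM in normal livers. Calls were densest for licensing (7 of 8), nucleotide supply (4 of 5), chromatin (3 of 3) and Okazaki fragment joining (2 of 2), and sparser for helicase activation (1 of 3), polymerases (1 of 4), clamp and loader (1 of 4) and G1/S regulators (2 of 4).

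With HepLPCs the means of most of these genes lay between PBS and normal. Mean RPKM in HepLPC livers was between the PBS and normal means for 30 of the 33, above the PBS mean for Pole, Rfc3 and Rfc5, and below the normal mean for 0. Intermediate means were not counted over all tested genes. Fold changes of the 15983 tested genes leaned the same way, 12078 above 0 in PBS against normal and 11727 below 0 in HepLPC against PBS. Rrm2, Uhrf1 and Mcm3 were called lower in HepLPC than in PBS livers, 3 of 33, against 3.72% of all tested genes called lower and 0.163% called higher. At an unadjusted p under 0.05 by limma 16 of the 33 differed, against 17.8% of all tested genes. The median fold change was -0.34, against -0.13 over all tested genes, and 30 of the 33 were below 0, or 26 after rescaling by the median of ratios and 23 after quantile normalization. In 14 of the 33 all HepLPC libraries lay below all PBS libraries, against 17.3% of tested genes. In HepLPC against normal livers 0 of the 33 passed, and 0% of tested genes were called higher and 0.025% lower. All 33 fold changes were above 0 there (median 0.27, against 0.04 over all tested genes), Lig1 and Tyms falling below 0 under both rescalings. Of all 15983 tested genes, 9490 had fold changes above 0 in HepLPC against normal. In 17 of the 33 all HepLPC libraries lay above all normal libraries, against 12% of tested genes. For HepLPC against normal, 15 of the 33 had an unadjusted p under 0.05 by limma, against 8.51% of all tested genes, the lowest adjusted p was 0.102 (Rrm2), and limma voom on reads recovered from the RPKM also called 0. These comparisons share libraries, so they are not independent of each other.

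**Figure D2:**
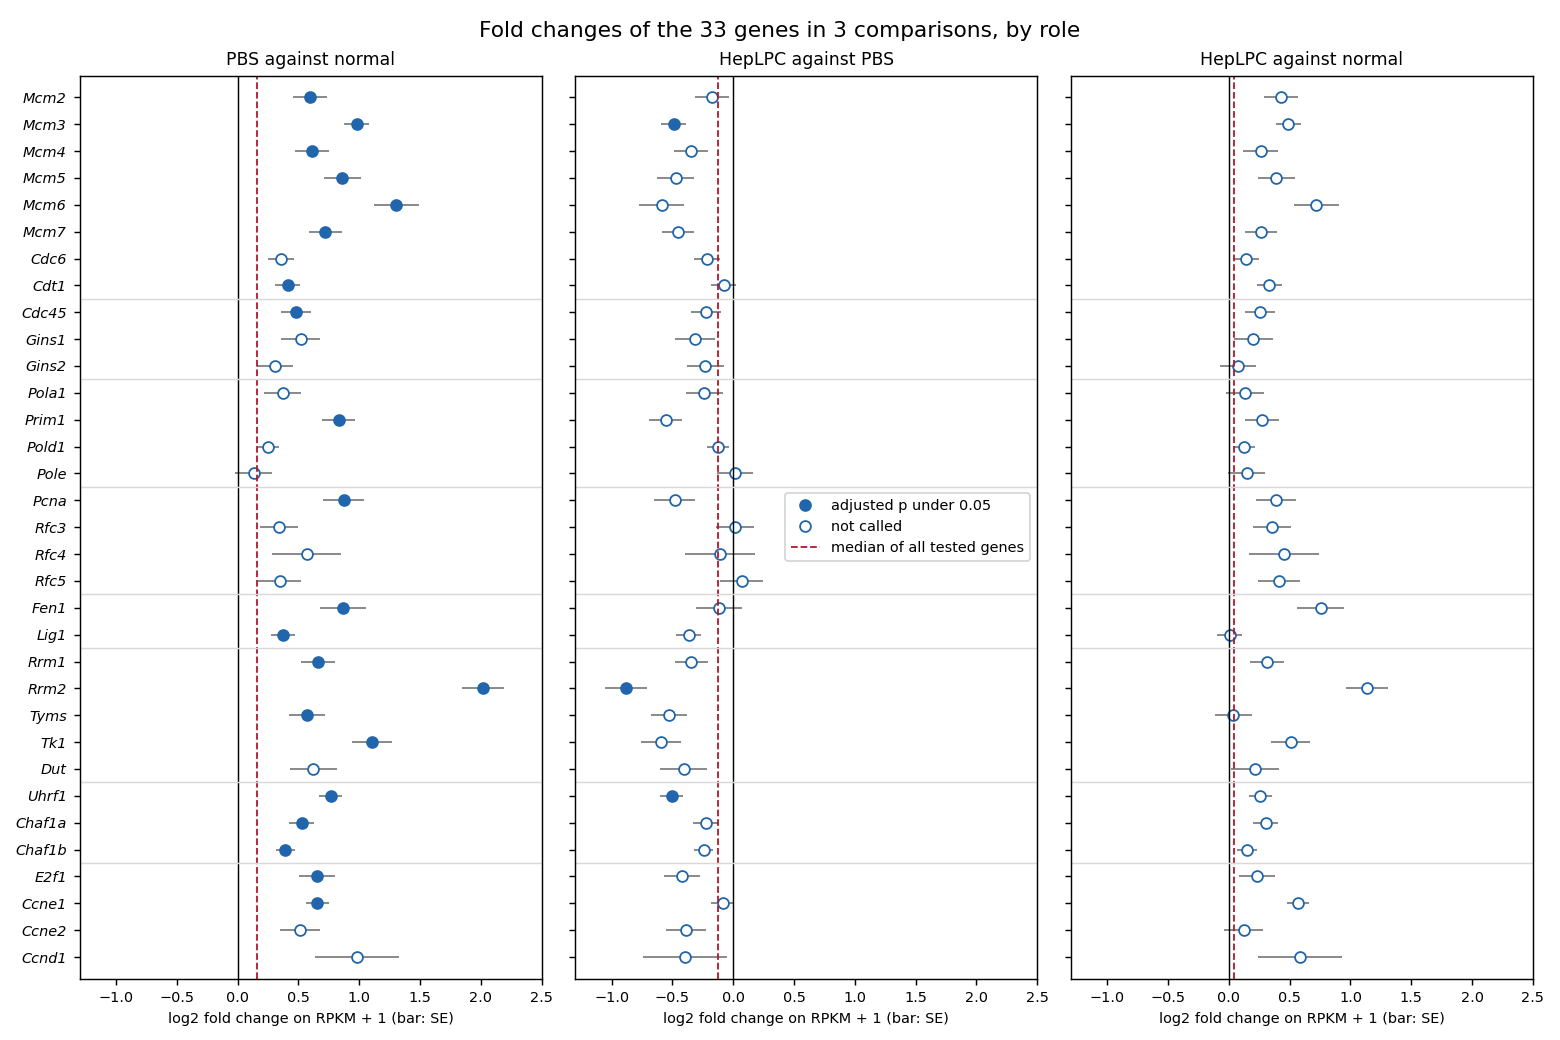
Log2 fold change on RPKM + 1 (x axis, bars are SE) of each gene (rows, grouped by role) in 3 comparisons of 3 libraries a group. Filled points are called, and the dashed line is the median of all tested genes, 0.16, -0.13 and 0.04 from left to right. Filled points number 21, 3 and 0.

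The change in nucleotide supply was led by Rrm2, the small subunit of ribonucleotide reductase, which makes deoxynucleotides and whose level follows S phase. Rrm2 had 1.27, 2.04 and 2.0 RPKM in HepLPC livers, 4.35, 4.49 and 3.43 RPKM in PBS livers, and 0.36, 0.04 and 0.39 RPKM in normal livers. The 3 groups did not overlap. The log2 fold change was 2.02 (SE 0.17, adjusted p = 0.000382) in PBS against normal, the largest among the 33, and -0.88 (SE 0.17, adjusted p = 0.0267) in HepLPC against PBS. In HepLPC against normal it was 1.14 (95% interval 0.74 to 1.53) and did not pass. The normal level rests on 41 reads in 3 libraries, and the 2 reads of normal replicate 2 have an exact Poisson 95% interval of 0.242 to 7.22 reads, for counting error only. Cys1, which overlaps Rrm2 in the RefSeq annotation, moved the same way at lower levels (means of 0.0885, 0.621 and 0.0317 RPKM in HepLPC, PBS and normal livers), and how reads shared by overlapping genes were counted is not stated.

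Rrm1, the large subunit of the same enzyme, was called higher too, with a log2 fold change of 0.66 (SE 0.14) in PBS against normal. The ratio of Rrm1 to Rrm2, which library scaling cannot move, was 4.97, 2.55 and 3.28 in HepLPC livers, 1.58, 1.85 and 2.5 in PBS livers, and 14.6, 122.5 and 10.99 in normal livers. The value of normal replicate 2 rests on its 2 Rrm2 reads, whose counting interval alone gives 33.9 to 1012. This ratio was chosen after the values were seen and has no test. Tk1, the thymidine kinase of the salvage route, was called higher in PBS than in normal livers (log2 fold change 1.10, SE 0.16) and was 4.79, 6.34 and 5.88 RPKM in HepLPC livers, 8.73, 9.11 and 9.27 RPKM in PBS livers, and 2.74, 3.97 and 4.48 RPKM in normal livers, again with no overlap. Tyms, which makes thymidylate, was called higher in PBS than in normal livers (0.57, SE 0.15), and its HepLPC mean of 2.99 RPKM was close to the normal mean of 2.88 RPKM. Dut, the dUTPase that keeps uracil out of DNA, had 10.1, 17.1 and 10.01 RPKM in HepLPC livers, 16.8, 15.5 and 16.6 RPKM in PBS livers, and 11.9, 9.99 and 9.04 RPKM in normal livers, and was not called. The highest HepLPC value of Dut came from replicate 2, the library in which short genes are raised.

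**Figure D3:**
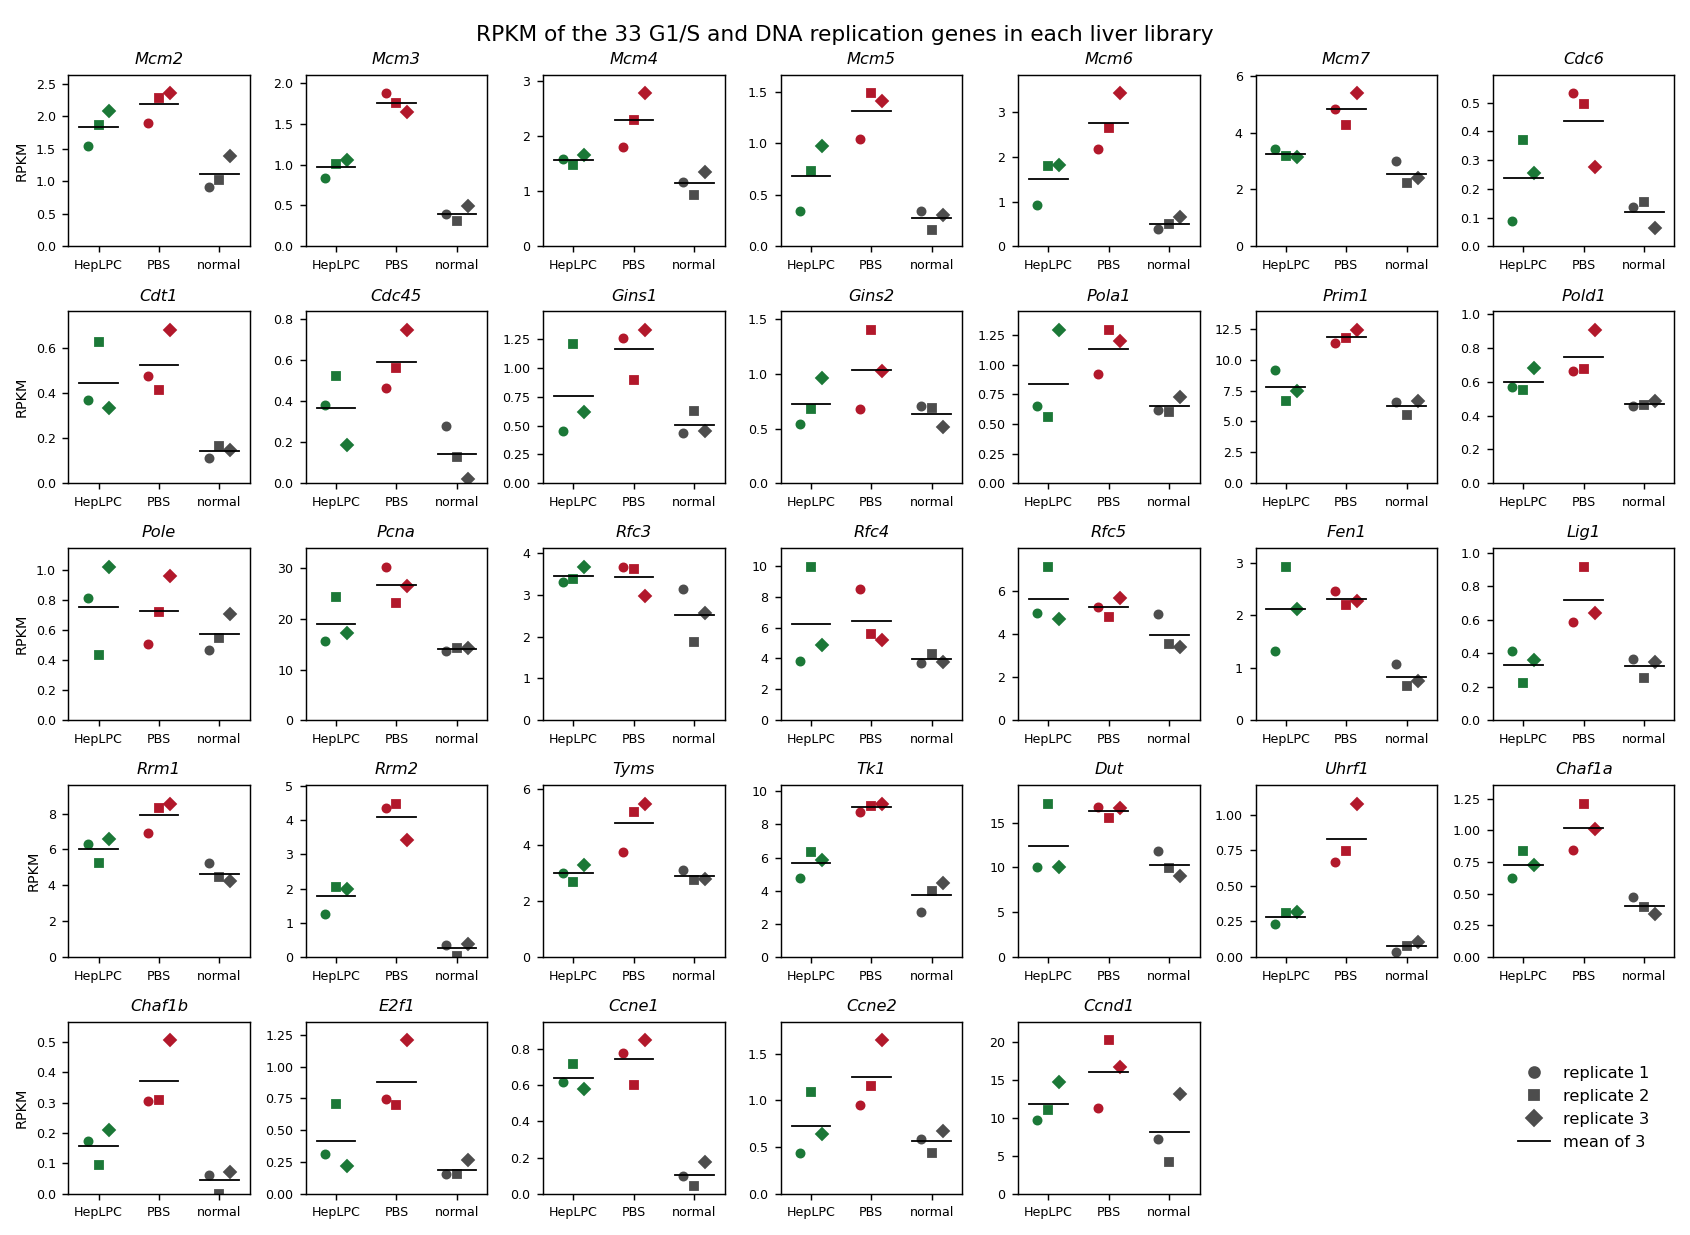
RPKM (y axis, from 0, scaled to each gene) of the 33 genes in the HepLPC, PBS and normal livers, with a point for each library and a line at the mean of 3. PBS points lie above normal points in 28 panels, and HepLPC means lie between the other two means in 30.

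All 8 licensing genes had HepLPC means between the PBS and normal means. Mcm6, a helicase ring subunit, had 0.92, 1.79 and 1.81 RPKM in HepLPC livers, 2.18, 2.65 and 3.42 RPKM in PBS livers, and 0.38, 0.49 and 0.66 RPKM in normal livers. Its log2 fold change was 1.30 (SE 0.19, adjusted p = 0.00267) in PBS against normal and -0.59 (SE 0.19, adjusted p = 0.127) in HepLPC against PBS, so it passed in the first only although its groups did not overlap in either. Mcm3, another ring subunit, had 0.83, 1.00 and 1.06 RPKM in HepLPC livers, 1.87, 1.75 and 1.64 RPKM in PBS livers, and 0.39, 0.31 and 0.49 RPKM in normal livers. Mcm3 rose by 0.98 (SE 0.10, adjusted p = 0.000796) in PBS against normal and fell by 0.49 (SE 0.10, adjusted p = 0.0364) in HepLPC against PBS. Mcm7 was the most abundant of the ring genes, with 3.41, 3.18 and 3.15 RPKM in HepLPC livers, 4.83, 4.28 and 5.40 RPKM in PBS livers, and 3.02, 2.23 and 2.4 RPKM in normal livers. All 6 ring genes were called higher in PBS than in normal livers. Their levels differed within a library, and Mcm7 exceeded Mcm5, the lowest by mean in each group, by 10.02, 4.37 and 3.24-fold in HepLPC livers, 4.66, 2.88 and 3.83-fold in PBS livers, and 8.73, 14.1 and 7.83-fold in normal livers. PBS and normal ratios did not overlap, and HepLPC replicate 1 lay within the normal range. This ratio, too, was chosen after the values were seen. Of the loaders, Cdt1 was called higher in PBS than in normal livers (log2 fold change 0.41, SE 0.10), and Cdc6 was not (0.35, SE 0.11, adjusted p = 0.0596), with no more than 0.53 RPKM in any library. In HepLPC against PBS, Cdt1 differed by -0.08 (95% interval -0.31 to 0.15), above 0 under both rescalings.

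Genes that activate the helicase were low everywhere. Gins1, a GINS subunit, had 0.45, 1.21 and 0.62 RPKM in HepLPC livers, 1.26, 0.90 and 1.33 RPKM in PBS livers, and 0.44, 0.63 and 0.45 RPKM in normal livers. PBS lay above normal for Gins1 without passing (0.52, SE 0.16, adjusted p = 0.0682), and HepLPC replicate 2 reached into the PBS range. Cdc45, which joins GINS on the ring, was called higher in PBS than in normal livers (0.48, SE 0.12), and Gins2 was not (0.31, SE 0.15). Gins2 overlaps Gse1, whose means of 0.345, 0.693 and 0.414 RPKM in HepLPC, PBS and normal livers were of similar size.

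Among the 4 polymerase genes Prim1 had the highest levels and was the only one called in PBS against normal. Prim1, the catalytic primase subunit that lays the RNA primers, had 9.18, 6.69 and 7.47 RPKM in HepLPC livers, 11.3, 11.8 and 12.4 RPKM in PBS livers, and 6.55, 5.49 and 6.66 RPKM in normal livers. It was called higher in PBS than in normal livers (0.83, SE 0.14, adjusted p = 0.00523), and all HepLPC libraries lay below the PBS libraries (-0.56, SE 0.14, adjusted p = 0.0576). Pola1, the polymerase subunit of the same primase complex, averaged 0.834 ± 0.402 RPKM in HepLPC livers, 1.14 ± 0.193 RPKM in PBS livers and 0.649 ± 0.0682 RPKM in normal livers (SD, n = 3 each) and was not called. Pold1 and Pole, the catalytic subunits of the lagging-strand and leading-strand polymerases, were not called either. The PBS mean over the normal mean was 1.898 for Prim1 and 1.751 for Pola1, with Pold1 and then Pole lower. In proportion Prim1 and Pola1 thus rose by similar amounts, and the log2(RPKM + 1) scale understates the change of the lower Pola1. These ratios were not tested. Pole had the smallest fold change of the 33 in PBS against normal (0.13), and its levels were 0.81, 0.43 and 1.02 RPKM in HepLPC livers, 0.51, 0.72 and 0.96 RPKM in PBS livers, and 0.47, 0.55 and 0.70 RPKM in normal livers. The 95% interval of its log2 fold change was -0.21 to 0.47 in PBS against normal and -0.32 to 0.35 in HepLPC against PBS, so changes of that size in either direction were not detectable here.

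Pcna, the sliding clamp that holds polymerases on DNA, was the most abundant of the 33 genes. Pcna had 15.7, 24.3 and 17.1 RPKM in HepLPC livers, 30.4, 23.2 and 26.5 RPKM in PBS livers, and 13.6, 14.3 and 14.3 RPKM in normal livers. PBS and normal libraries did not overlap (log2 fold change 0.87, SE 0.17, adjusted p = 0.0107). HepLPC replicate 2 reached the PBS range, and HepLPC against PBS did not pass (-0.48, SE 0.17, adjusted p = 0.166). The loader subunits changed less. Rfc3 had 3.31, 3.38 and 3.68 RPKM in HepLPC livers, 3.67, 3.63 and 2.98 RPKM in PBS livers, and 3.14, 1.87 and 2.58 RPKM in normal livers. Rfc5 had 4.96, 7.12 and 4.71 RPKM in HepLPC livers, 5.23, 4.77 and 5.67 RPKM in PBS livers, and 4.90, 3.53 and 3.38 RPKM in normal livers. For both, HepLPC and PBS values overlapped, with 95% intervals of -0.34 to 0.36 (Rfc3) and -0.33 to 0.46 (Rfc5) for the log2 fold change. Rfc4 ranged from 3.80 to 9.95 RPKM in HepLPC livers, from 5.17 to 8.53 RPKM in PBS livers and from 3.73 to 4.30 RPKM in normal livers, its highest values coming from HepLPC replicate 2 and PBS replicate 1.

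**Figure D4:**
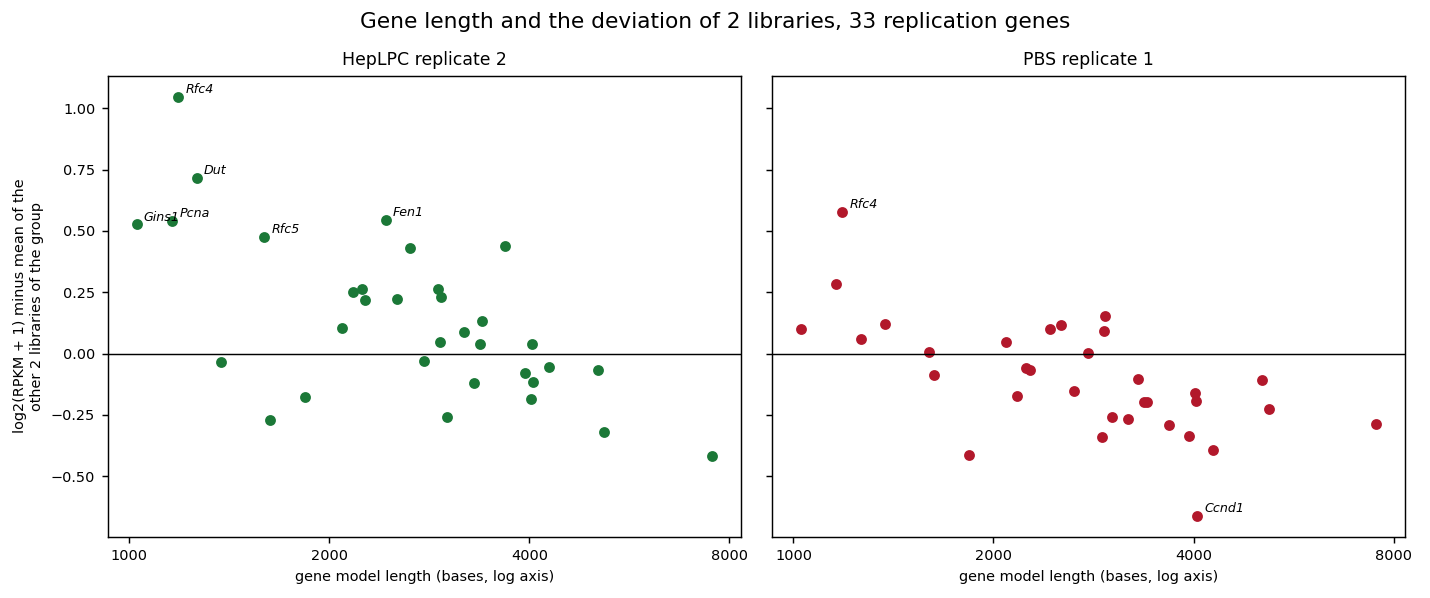
Deviation of HepLPC replicate 2 and of PBS replicate 1 (y axis, log2(RPKM + 1) minus the mean of the other 2 libraries of the group) against gene model length (x axis, bases, log axis) for the 33 genes. Short genes lie high relative to long ones in both (rho -0.60 and -0.66).

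Length ran from 1026 bases (Gins1) to 7535 bases (Pole). In HepLPC replicate 2 the 8 genes of up to 2000 bases deviated by a median of 0.50 and the 25 longer genes by 0.05. In PBS replicate 1 the medians were 0.08 for the short and -0.17 for the longer genes, so there the longer genes lay low. Without HepLPC replicate 2 and PBS replicate 1, 24 of the 33 were called higher in PBS against normal and 4 lower in HepLPC against PBS. Calls over all 15983 tested genes rose as well. They were 3753 higher and 684 lower in these comparisons, against 1797 and 594 with all 9 libraries.

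Both genes that join Okazaki fragments were called higher in PBS than in normal livers. Fen1, the nuclease that trims their flaps, had 1.32, 2.93 and 2.13 RPKM in HepLPC livers, 2.47, 2.19 and 2.27 RPKM in PBS livers, and 1.07, 0.64 and 0.75 RPKM in normal livers. All HepLPC and PBS values of Fen1 lay above the normal ones, with log2 fold changes of 0.75 (SE 0.19, adjusted p = 0.286) in HepLPC against normal and 0.87 (SE 0.19, adjusted p = 0.0186) in PBS against normal. Lig1, the ligase, averaged 0.329 ± 0.0996 RPKM in HepLPC livers, 0.714 ± 0.177 RPKM in PBS livers and 0.32 ± 0.0602 RPKM in normal livers (SD, n = 3 each). Fen1 overlaps Tmem258, whose means were 58.2, 55.8 and 47.0 RPKM in HepLPC, PBS and normal livers, and the part of shared reads was not tested.

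All 3 genes that rebuild chromatin behind the fork rose in PBS against normal. Uhrf1, which brings the maintenance DNA methyltransferase to newly copied DNA, had 0.23, 0.31 and 0.31 RPKM in HepLPC livers, 0.67, 0.74 and 1.08 RPKM in PBS livers, and 0.04, 0.08 and 0.10 RPKM in normal livers. The 3 groups did not overlap, and the normal level rests on 19 reads. Uhrf1 rose by 0.76 (SE 0.10, adjusted p = 0.00153) in PBS against normal and fell by 0.51 (SE 0.10, adjusted p = 0.0233) in HepLPC against PBS. Chaf1a, the large subunit of the histone chaperone CAF-1, had 0.62, 0.84 and 0.73 RPKM in HepLPC livers, 0.84, 1.21 and 1.01 RPKM in PBS livers, and 0.47, 0.39 and 0.34 RPKM in normal livers. Its partner Chaf1b had the lowest mean level of the 33, 0.192 RPKM, and was at 0 in normal replicate 2.

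Of the G1/S regulators E2f1 and Ccne1 were called and Ccne2 and Ccnd1 were not. E2f1, an activator of S phase genes, had 0.31, 0.70 and 0.22 RPKM in HepLPC livers, 0.74, 0.70 and 1.21 RPKM in PBS livers, and 0.15, 0.16 and 0.26 RPKM in normal livers, and rose by 0.65 (SE 0.15, adjusted p = 0.0204) in PBS against normal. Ccne1, a cyclin E that activates Cdk2, had 0.62, 0.72 and 0.58 RPKM in HepLPC livers, 0.78, 0.60 and 0.85 RPKM in PBS livers, and 0.10, 0.04 and 0.18 RPKM in normal livers. HepLPC and PBS values of Ccne1 overlapped, and both lay above all normal values. Ccne1 rose by 0.66 (SE 0.09, adjusted p = 0.00242) in PBS against normal. Its log2 fold change was -0.09 (95% interval -0.29 to 0.12) in HepLPC against PBS, slightly above 0 under both rescalings, and 0.57 (95% interval 0.36 to 0.77, adjusted p = 0.114) in HepLPC against normal. The normal level of Ccne1 rests on 14 reads.

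Ccne2, the other cyclin E gene, had 0.44, 1.08 and 0.64 RPKM in HepLPC livers, 0.95, 1.15 and 1.64 RPKM in PBS livers, and 0.59, 0.44 and 0.67 RPKM in normal livers, and did not pass in PBS against normal (0.51, SE 0.16, adjusted p = 0.0732). Ccne2 overlaps Ints8, whose means were 8.15, 8.94 and 8.30 RPKM in HepLPC, PBS and normal livers. The part of reads shared with Ints8 was not tested. Ccnd1, the cyclin D1 that starts the inactivation of Rb, had 9.72, 10.98 and 14.8 RPKM in HepLPC livers, 11.3, 20.2 and 16.8 RPKM in PBS livers, and 7.22, 4.15 and 13.1 RPKM in normal livers. The groups overlapped for Ccnd1, its log2 fold change in PBS against normal was 0.98 (95% interval 0.21 to 1.76, adjusted p = 0.0977), and its SE of 0.35 was the widest of the 33.

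Of 60 tested genes that license, start, fuel or run replication or promote the G1/S step and are not among the 33, 11 (18.3%) were called higher in PBS against normal and 0 lower, against 11.2% of all tested genes higher. In HepLPC against PBS, where 3.72% of all tested genes were called lower, and in HepLPC against normal 0 of the 60 were called. Ccna2, the S phase cyclin A, averaged 1.55 RPKM in HepLPC livers, 2.61 RPKM in PBS livers and 0.725 RPKM in normal livers and rose by 1.07 (SE 0.17, adjusted p = 0.00464) in PBS against normal. Pold2, a polymerase delta subunit, rose by 0.71 (SE 0.15), Rpa2, a subunit of the single-strand binding protein, by 0.68 (SE 0.16), Orc5 of the origin recognition complex by 0.48 (SE 0.11), the histone-binding protein gene Rbbp4 by 0.54 (SE 0.11), and the histone chaperone gene Asf1b by 0.69 (SE 0.17) in the same comparison. Of 12 tested genes that hold back the G1/S step, 4 were called higher and 0 lower in PBS against normal livers, against 11.2% of all tested genes higher, and 3 (Cdkn1a, Rb1 and Rbl2) had fold changes below 0. The 4 were Cdkn2c (1.27, SE 0.27), Cdkn2b (0.64, SE 0.12) and Cdkn2a (1.19), inhibitors of the cyclin D kinases, and E2f5 (0.51), a repressive E2F. Cdkn2a was uneven, with 1.51, 0.343 and 3.01 RPKM in the 3 PBS livers. Cdkn1a, the p21 inhibitor, averaged 8.16 RPKM in HepLPC livers, 15.1 RPKM in PBS livers and 20.6 RPKM in normal livers, and was not called in any comparison.

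Mitosis genes, which act after replication, followed the same order of groups. All 20 of the mitosis list were called higher in PBS against normal (median 0.93), against 11.2% of all tested genes (median 0.16). In HepLPC against PBS 4 were called lower (Mki67, Ccnb2, Bub1 and Kif11, median of the list -0.40), against 3.72% of all tested genes (median -0.13). In HepLPC against normal 0 passed (median 0.57), and 0% of all tested genes were called higher (median 0.04). Their summed level was 19.0 to 26.0 RPKM in HepLPC livers, 31.9 to 43.7 RPKM in PBS livers and 5.64 to 9.65 RPKM in normal livers. The difference between the 2 lists was not tested.

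**Figure D5:**
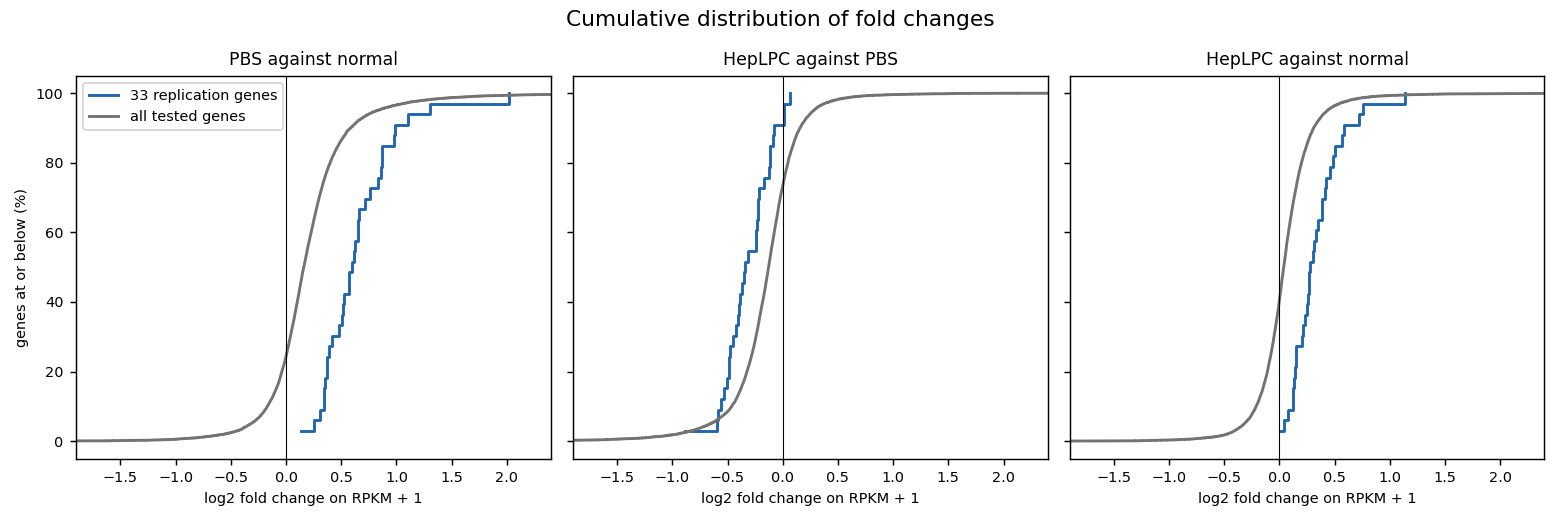
Share of genes (y axis, %) with a log2 fold change on RPKM + 1 at or below the value on the x axis, for the 33 replication genes and for all 15983 tested genes, in 3 comparisons. The medians of the 33 are 0.60, -0.34 and 0.27, against 0.16, -0.13 and 0.04 for all tested genes.

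Bile duct and stellate cell markers were called in the same directions as the replication genes. Of all tested genes 11.2% were called higher in PBS against normal and 3.72% lower in HepLPC against PBS. In a list of 6 genes, 0 or 1 call lies near these shares. The summed level of 6 bile duct markers was 10.3 to 19.8 RPKM in HepLPC livers, 49.1 to 176 RPKM in PBS livers and 8.70 to 10.4 RPKM in normal livers, with 5 of 6 called higher in PBS against normal and 5 of 6 called lower in HepLPC against PBS; of its defining markers Krt7 and Spp1 were at 0 in some libraries. For 6 stellate cell and myofibroblast markers it was 44.7 to 59.3, 71.3 to 114 and 24.8 to 28.6 RPKM in HepLPC, PBS and normal livers, with 4 and 2 called in the same directions. Macrophage markers summed to 117 to 172 RPKM in HepLPC livers, 159 to 212 RPKM in PBS livers and 100.5 to 137 RPKM in normal livers, with 0 of 6 called. The 6 hepatocyte markers, 0 of which were called, summed to 69372 to 83698 RPKM in HepLPC livers, 61743 to 69212 RPKM in PBS livers and 65641 to 86485 RPKM in normal livers, so markers of the labelled tissue were high in every library. Summed T cell markers were 7.99 to 13.8 RPKM in HepLPC livers, 11.7 to 15.5 RPKM in PBS livers and 8.70 to 10.6 RPKM in normal livers. Most of that sum was Cd4, with means of 5.84, 9.19 and 5.94 RPKM in HepLPC, PBS and normal livers. The T cell list did not rise together: its median log2 fold change in PBS against normal was -0.009, with 4 of 6 below 0. B cell markers summed to 9.71 to 30.8 RPKM in HepLPC livers, 16.6 to 22.6 RPKM in PBS livers and 4.27 to 7.90 RPKM in normal livers. Their median log2 fold change in PBS against normal was 0.008, with 3 of 6 below 0. Endothelial markers summed to 57.0 to 67.6, 65.4 to 81.4 and 62.6 to 68.6 RPKM in HepLPC, PBS and normal livers. Red cell precursor markers, 0 of 6 called, lay lower in PBS against normal (median log2 fold change -0.47, 5 of 6 below 0), with sums of 736 to 1157 RPKM in HepLPC livers, 357 to 1132 RPKM in PBS livers and 770 to 2134 RPKM in normal livers. Neutrophil markers summed to 3.53 to 4.34 RPKM in HepLPC livers, 6.43 to 19.7 RPKM in PBS livers and 1.91 to 4.81 RPKM in normal livers. Of 3 tested neutrophil, 6 B cell and 6 endothelial markers 1 gene each (S100a9, Jchain and Vwf) was called higher in PBS against normal, and of the T cell and red cell precursor lists 0. The part of these cell types in the change of the replication genes was not tested, and RNA of donor HepLPCs and of host cells cannot be told apart.

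Of the 21 calls in PBS against normal, 8 (Rrm2, Mcm3, Mcm5, Mcm6, Prim1, Tk1, Ccne1 and Uhrf1) held under every alternative that tested them, and the other 13 were lost under 1 to 14, most often Lig1 (called under 5 of 19), Tyms (9 of 20) and Cdc45 (10 of 19). The filter of at least 1 RPKM in 3 libraries left out Ccne1 and Uhrf1. It kept Mcm5 through its PBS libraries alone, so that setting is no separate support for Mcm5. The count of 21 was 10 without normal replicate 2, 13 without normal replicate 3 and 12 without PBS replicate 3. Higher calls over all 15983 tested genes fell as well, to 868, 871 and 931, against 1797 with all 9 libraries. The 3 calls in HepLPC against PBS were less stable: Uhrf1 passed under 12 of 19 alternatives, Rrm2 under 7 of 20 and Mcm3 under 2 of 20. That count of 3 was 0 without HepLPC replicate 1, HepLPC replicate 3 or PBS replicate 3, and 1 without PBS replicate 2, normal replicate 1 or normal replicate 2. Lower calls over all tested genes were 158, 367 and 235, then 459, 346 and 316 there, against 594 with all 9 libraries. Rescaling by the median of ratios moved the median over all genes in PBS against normal to 0.00. It left a median of 0.41 for the 33 genes and 12 calls, all higher, beside 967 higher calls over all tested genes. It also changed the split of all calls, of which 72.9% were then higher, as were 69.1% after quantile normalization, against 92.1% as deposited. In HepLPC against PBS 14.8% of all calls were higher after quantile normalization, against 4.19% as deposited.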

How the data were processed

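Total RNA of whole livers was sequenced from TruSeq libraries on Illumina instruments, per the labels' protocols. The submitters' processing notes name HISAT2, StringTie and hg19, a human build, although the symbols are those of rat genes; how genes were counted and whether strand was used are not given in the sources used here. The deposited values are RPKM, per the file headers. RPKM was multiplied back to whole reads by gene length and depth, both fitted to the RPKM. Reads were whole within 0.01 read for 20957 of 20959 genes (99.99%) above 0 in at least 3 libraries. Lengths were searched, so genes above 0 in few libraries can give whole reads by chance. A factor per library would be taken up in its fitted depth, so whole reads alone cannot exclude it. Summed reads were close to the fitted depth in each library (17.4031 M against 17.4087 M in HepLPC replicate 3). The authors' deposited RPKM thus showed no further scaling per library. These reads gave depths of 17.4 to 21.8 M reads per library and were used for limma voom as an alternative.

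Samples were grouped by title and treatment. RPKM + 1 was taken to log2 and fitted with limma 3.58.1 in R 4.3.3 (empirical Bayes with trend, 2-sided) with a term per group over all 9 libraries, keeping genes with a mean of at least 0.1 RPKM. Contrasts of 3 pairs of groups were adjusted by Benjamini-Hochberg over 15983 genes, with calls under 0.05. The procedure was tested on simulated counts with the same spread for all genes and no deviation linked to gene length. That test does not cover the length-linked deviations of HepLPC replicate 2 and PBS replicate 1. Of the 33 genes, 33 passed this filter; 21 would pass at least 1 RPKM in 3 libraries. The 20 alternatives changed the pseudocount, filter, scaling, model, test and libraries used. Same-numbered libraries did not deviate together, so no pairing was used. Replicates differed by more than counting noise. Gene lists and members were chosen with earlier results of these data known. All 33 genes could be named; every library is given for the most abundant and most changed gene of each role, for Rrm2, Pcna, E2f1, Ccne1, Ccne2 and Ccnd1, for genes going against the rest, and for Mcm3 and Tk1, added after seeing values. From each other list, the 2 genes with the smallest adjusted p in a comparison could be named; Cdkn2a, E2f5 and Ccnb2 with Mki67 and Kif11 complete counts of calls. RefSeq pseudogenes exist for Mcm2, Mcm4, Mcm7, Pcna, Rfc4, Rfc5, Rrm1, Tk1 and Dut, so their levels are uncertain if reads were shared. Promoter sequences are RefSeq's, build GRCr8.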

Additional observations from a re-analysis of the deposited data

How the results depend on the processing

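Of 33 genes, the 21 called in PBS against normal became 12 after rescaling by the median of ratios, 10 after quantile normalization and 13 with a filter of at least 1 RPKM in 3 libraries, which tested 21 of them. Higher calls over all tested genes went from 1797 of 15983 to 967 and 745 of 15983 and 1157 of 11124. Leaving out each library in turn gave 10 to 25 of the 33, and 868 to 2245 higher calls over all tested genes. The 3 called in HepLPC against PBS became 1 with a pseudocount of 0.1, the stricter filter, no filter, the median of ratios or limma voom, and 0 after quantile normalization or with only the 2 groups compared (leaving out each library gave 0 to 3). Lower calls over all tested genes went from 594 to 464, 326, 418, 329, 473, 242 and 96 in that order of settings. They were 158 to 872 on leaving out each library. HepLPC against normal gave 0 throughout, with no more than 20 of all tested genes called under any setting. Replicate numbers do not pair the libraries (correlations of same-numbered HepLPC and PBS libraries were -0.37, -0.30 and 0.27). With the replicate number as a block the counts were 16, 1 and 0, beside 1318, 321 and 1 calls over all tested genes. The causes were not tested.

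Signs changed for fold changes near 0. In HepLPC against PBS, after the median of ratios, Ccne1 was 0.0076, Cdt1 0.0029, Fen1 0.045 and Rfc4 0.086, and after quantile normalization Ccne1 was 0.10, Cdt1 0.089, Chaf1a 0.0019, Fen1 0.12, Mcm2 0.067, Pold1 0.065 and Rfc4 0.060. Pole was -0.010 with limma voom, and Rfc5 was -0.089 without PBS replicate 1 and HepLPC replicate 2. In HepLPC against normal, Lig1 was -0.0074 and Tyms -0.0023 after the median of ratios, Lig1 was -0.044 and Tyms -0.0013 after quantile normalization, and Ccne2 was -0.025 and Dut -0.025 without those 2 libraries. In PBS against normal, Pole was -0.12 after quantile normalization. Leaving out each library in turn turned the sign under at least 1 omission, with these ranges of the log2 fold change. In HepLPC against PBS they were -0.30 to 0.084 for Fen1, -0.095 to 0.15 for Pole, -0.063 to 0.053 for Rfc3, -0.46 to 0.13 for Rfc4 and -0.091 to 0.16 for Rfc5. In HepLPC against normal they were -0.025 to 0.24 for Ccne2, -0.025 to 0.34 for Dut, -0.020 to 0.15 for Gins2, -0.037 to 0.069 for Lig1, -0.041 to 0.24 for Pola1 and -0.015 to 0.096 for Tyms.

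Depth limits the low genes: 19 of the 33 were under 1 RPKM in every normal library, and intervals cover counting error or the spread of 3 libraries only.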
